A study of Homo sapiens with 6 samples.

Results

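The 10 heat shock genes described here encode the HSP70 chaperones HSPA1A, HSPA1B and HSPA8, the HSP90 chaperone HSP90AA1, the HSP110 protein HSPH1, the J protein DNAJB1, the small heat shock protein HSPB1, the mitochondrial chaperonin HSPD1 with its partner HSPE1, and the co-chaperone BAG3. The genes were selected by symbol, by a rule that holds no measured value, but earlier results of these data were known when they were listed. Each of the 10 symbols matched 1 of the 19727 rows of the expression table, and all 10 had a mean of at least 1 FPKM (fragments per 1000000 fragments and per kilobase of transcript) over the libraries, the level required for testing.

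The cells were DU145, a long-established line from human prostate cancer. Stable DU145 lines carrying a lentiviral vector for the circular RNA circCSPP1 (OE, genotype circCSPP1 overexpression) were compared with lines carrying the control vector (NC, genotype normal), with 3 libraries in each group. Both groups had been selected with puromycin, and effects of the circular RNA and of the vector that carries it cannot be told apart in this design. Libraries of poly(A) RNA were read from both ends on an Illumina NovaSeq instrument, and no source says whether the 3 libraries of a group came from separate cultures, so the p-values measure the spread between these libraries.

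Heat shock proteins keep other proteins folded. HSP70 proteins bind unfolded stretches of their clients in a cycle driven by ATP, J proteins deliver the clients and start the cycle, and HSP110 and BAG proteins exchange the nucleotide and release the client. HSP90 completes the folding of kinases and steroid receptors, small heat shock proteins hold unfolded proteins without ATP, and the HSPD1/HSPE1 chamber folds proteins imported into the mitochondrial matrix. The transcription factor HSF1 induces most of these genes after heat or proteotoxic stress by binding heat shock elements, which are repeats of the bases GAA in alternating orientation. HSPA8 and HSP90AB1 are the copies expressed in unstressed cells, whereas HSPA1A, HSPA1B, DNAJB1 and BAG3 are strongly inducible. BAG3 also links HSP70 and the small heat shock protein HSPB8 to selective autophagy.

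The depth read from the low FPKM values was 28900000 to 36500000 fragments per library, and the groups overlapped. At this depth the member with the fewest fragments, HSPH1, was covered by about 1300 to 3100 fragments per library and HSP90AA1 by about 33300 to 78400. CSPP1, the parent gene of the circular RNA, measured 9.11 to 10.08 FPKM in NC and 14.47 to 22.76 FPKM in OE. These values per gene do not separate the linear mRNA from RNA of the vector or the circle. By qRT-PCR, the paper reports no change of linear CSPP1 with this vector. OE replicate 1 stood apart from the other OE libraries: its correlation with them across tested genes was 0.970 to 0.979, against 0.990 between OE replicates 2 and 3. Its departure from them followed the GC content of the transcript, with a Spearman correlation of 0.785 across tested genes, which are not independent replicates. Each call on the heat shock genes is therefore also given without this library and after a loess correction of every library for GC content and transcript length. The epithelial genes KRT8, KRT18, EPCAM and CDH1 were detected in all libraries, while KLK3 and KLK2, the defining androgen-responsive genes, were listed at 0. The summed level of the 6 epithelial and DU145 markers was 2851 to 2909 FPKM in NC and 1733 to 2012 FPKM in OE. The 4 epithelial genes named above were lower at an adjusted p under 0.05, with KRT8 at a mean of 1112 FPKM in NC and 416 FPKM in OE. VIM, a large part of the sum, averaged 1118 FPKM in NC and 1091 FPKM in OE (limma adjusted p = 0.77), and CDH2 reached at most 0.03 FPKM. The part of this fall in the results was not tested. In this bulk RNA, fewer cells of a type and less RNA per cell cannot be told apart. The 5 fibroblast markers summed to 2.68 to 4.14 FPKM in NC and 1.01 to 2.19 FPKM in OE, and the 3 endothelial markers to at most 0.62 FPKM in any library. The 4 leukocyte markers summed to 44.0 to 49.7 FPKM in NC and 35.8 to 50.4 FPKM in OE, almost all of it from CD68, while the defining marker PTPRC reached at most 0.08 FPKM.

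The heat shock element was searched in the promoter windows of RefSeq (GRCh38.p14, 250 bases before to 50 after each annotated start) as 3 alternating units, GAANNTTCNNGAA or its reverse complement TTCNNGAANNTTC, so both strands were read. All 10 genes had at least 1 window, 14 windows in total. Exact matches lay in windows of HSPA8, HSP90AA1 and HSPD1, that is in 3 of 10 genes, against 0.483% of the 9725 tested genes with a window. The stretches are shown because they are the sequences through which HSF1 is known to act. They are printed 5′ to 3′ on the strand of the gene, with the GAA and TTC units in capitals.
HSPA8 distal, chr11:123062348-123062372, minus strand: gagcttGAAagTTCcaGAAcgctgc
HSPA8 proximal, chr11:123062173-123062197, minus strand: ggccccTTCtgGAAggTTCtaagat
HSP90AA1, chr14:102087114-102087138, minus strand: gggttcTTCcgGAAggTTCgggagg
HSPD1, chr2:197500062-197500090, minus strand: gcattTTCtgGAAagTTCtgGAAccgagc
The HSPD1 stretch holds overlapping matches, with 4 units in a row, and lies at -250 to -222 from the HSPD1 start, at the edge of its window. It is outside the RefSeq window of the neighbouring HSPE1, which begins at 197500129. It is inside the GENCODE span of HSPE1, which begins at 197499994. The windows alone therefore do not assign it to 1 of these 2 genes. HSPA8 was the single member with matches at separate places, at -236 to -212 and at -61 to -37 from its start. Allowing 1 of the 9 fixed letters to differ, windows of HSPA1A, HSPA1B, HSPB1 and DNAJB1 also matched, as did 6.24% of all 34943 windows. A match describes these letters only, and no binding was measured.

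Between OE and NC, 4 of the 10 genes passed an adjusted p of 0.05 (limma on log2(FPKM + 1) with Benjamini-Hochberg adjustment over all 12322 tested genes). HSPA8, HSPB1 and HSPE1 fell and DNAJB1 rose. Over all tested genes, 11.4% passed, 4.69% higher and 6.66% lower in OE. The excess of lower calls over all genes, 821 against 578 higher, was 671 against 647 with median-ratio scaling and turned to 1717 lower against 1802 higher after the correction for GC content and length. The median log2 fold change of the 10 genes was -0.26, with 3 above and 7 below 0, beside -0.03 over all tested genes. Without OE replicate 1 the calls were 6, with HSP90AA1 and HSPH1 also lower, beside 28.5% of all tested genes. After the correction for GC content and length they were also 6, in the same directions, beside 28.6% of tested genes. Without NC replicate 1 or NC replicate 2 a single gene remained called, HSPA8. Without NC replicate 3 or OE replicate 3 the calls were HSPA8 and HSPB1. Of all 12322 tested genes, 300 and 317 were called without NC replicates 1 and 2, 407 without NC replicate 3 and 450 without OE replicate 3.

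**Figure D1:**
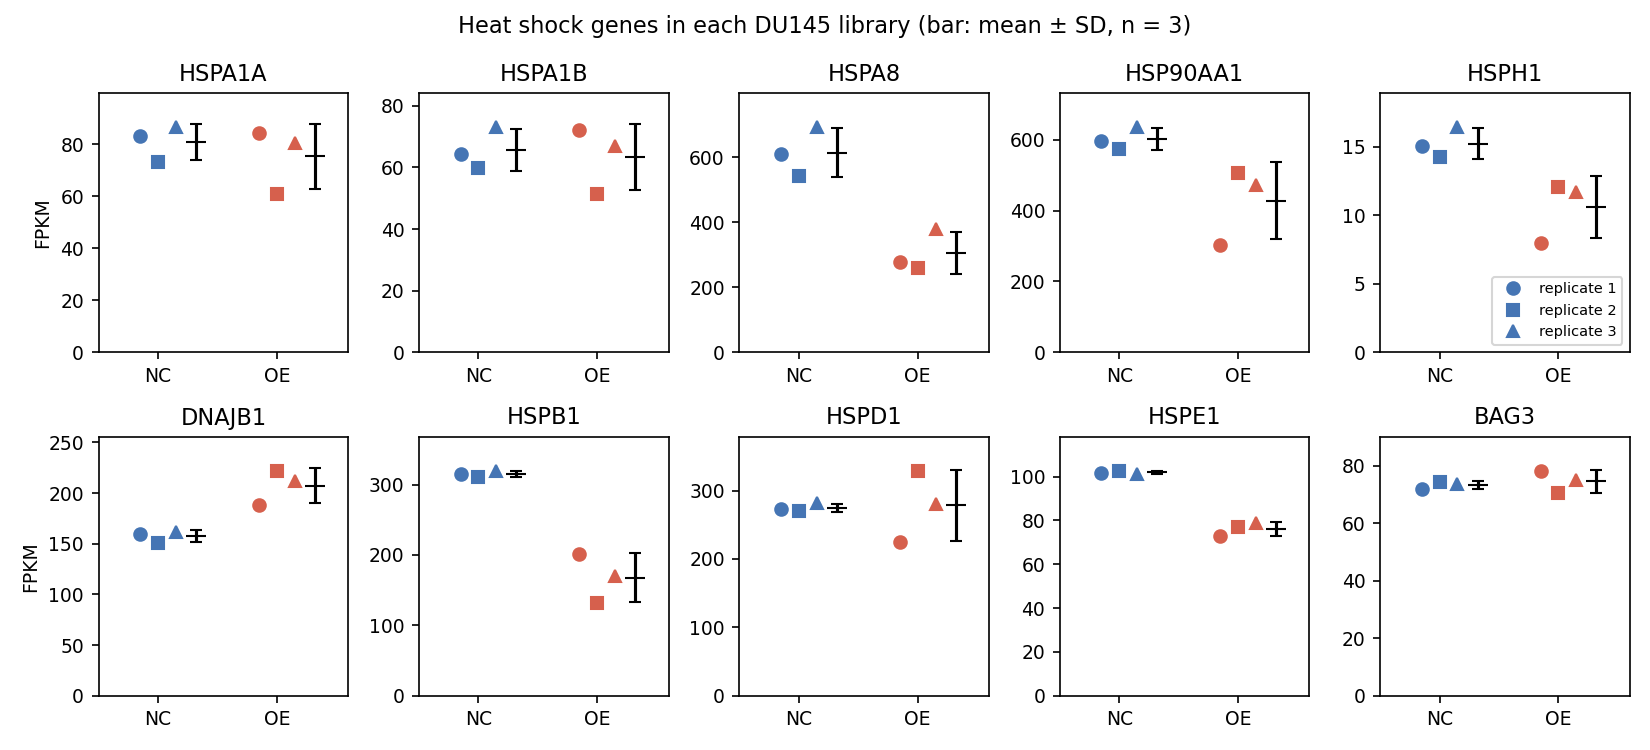
FPKM (vertical axes, from 0) of the 10 heat shock genes in the 3 NC and 3 OE libraries, with 1 marker shape per replicate number and bars for mean ± SD. All OE values of HSPA8, HSP90AA1, HSPH1, HSPB1 and HSPE1 lie below all NC values, all OE values of DNAJB1 lie above, and the groups overlap for HSPA1A, HSPA1B, HSPD1 and BAG3.

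HSPA8 encodes the constitutive cytosolic HSP70, HSC70, which also drives the uncoating of clathrin vesicles and chaperone-mediated autophagy. The gene (ENSG00000109971) lies on chromosome 11 from 123057489 to 123063230 on the minus strand (GRCh38, GENCODE release 29). It measured 609.30, 541.63 and 692.29 FPKM in NC replicates 1, 2 and 3, and 277.77, 259.67 and 378.71 FPKM in OE replicates 1, 2 and 3. The highest OE library was far below the lowest NC library. The NC mean of 614 ± 75.5 FPKM (SD, n = 3) was 2.01-fold the OE mean of 305 ± 64.1 FPKM (SD, n = 3). On the log2 scale HSPA8 fell by 1.02 (SE 0.16, limma adjusted p = 0.0095), the largest fall among the 10 genes. Only 86 of the 12322 tested genes, HSPA8 included, had a log2 fold change as low. The call was kept in 18 of 19 alternatives and lost without moderation of the variance (adjusted p = 0.065). Of the 50-base stretches of its transcript, 15.4% also occur in transcripts of other genes, mostly pseudogenes, and how the authors assigned such fragments is not known.

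The stress-inducible HSP70 pair did not follow HSPA8. HSPA1A and HSPA1B are intronless neighbours on chromosome 6 (31815464 to 31817946 and 31827735 to 31830255, plus strand), and 72.6% of the 50-base stretches of the HSPA1A transcript are identical in HSPA1B. Their separate values are therefore uncertain, and their sum is given beside them. HSPA1A measured 83.17, 73.20 and 86.59 FPKM in NC and 84.49, 60.98 and 80.70 FPKM in OE. HSPA1B measured 64.25, 59.79 and 73.07 FPKM in NC and 72.15, 51.53 and 66.96 FPKM in OE. In both genes the groups overlapped, and OE replicate 2 was the lowest of the 6 libraries. The log2 fold changes were -0.11 (95% interval -0.43 to 0.21) for HSPA1A and -0.06 (-0.39 to 0.27) for HSPA1B, with adjusted p of 0.65 and 0.84 from limma, and the sum gave -0.09 (adjusted p = 0.72). These intervals leave room for changes of either sign smaller than the fall of HSPA8. The interval for HSPA8 was -1.38 to -0.66.

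The ratio of the inducible pair to HSPA8 was higher in every OE library than in any NC library. HSPA1A and HSPA1B together amounted to 0.242, 0.246 and 0.231 of the HSPA8 level in NC, and to 0.564, 0.433 and 0.390 in OE, on the FPKM scale, which is per transcript length. The log2 ratio was higher by 0.93 (exact two-sided permutation test, p = 0.10, the smallest value that 3 against 3 libraries allow, 0.10 after adjustment over the 4 ratios tested). It was higher by 0.78 without OE replicate 1. The level of HSPA5, the HSP70 of the endoplasmic reticulum, was 0.396 to 0.502 of that of HSPA8 in NC and 0.609 to 0.925 in OE (log2 difference 0.79, exact permutation p = 0.10).

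DNAJB1 (HSP40) stimulates the ATPase of HSP70 and was the single member that rose. It measured 159.93, 150.83 and 161.38 FPKM in NC and 188.30, 221.99 and 211.83 FPKM in OE. All 3 OE libraries were above all 3 NC libraries, with OE replicate 1 the closest. DNAJB1 averaged 157 ± 5.72 FPKM in NC and 207 ± 17.3 FPKM in OE (SD, both n = 3), a 1.32-fold rise of the mean (0.39 on the log2 scale, SE 0.085, limma adjusted p = 0.028). The rise was larger without OE replicate 1 (0.46, adjusted p = 0.0034). The direction held in all 19 alternatives, with adjusted p from 0.0032 to 0.13, and the call was lost in 8 of them, among them the removal of any other library (adjusted p = 0.057 to 0.13).

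BAG3 and HSPH1 act on the HSP70 cycle at the release step. BAG3 had the narrowest range of the inducible members, at 71.69, 74.19 and 73.71 FPKM in NC and 78.21, 70.47 and 74.86 FPKM in OE. The OE libraries lay on both sides of the NC libraries. Its log2 fold change was 0.02 (95% interval -0.16 to 0.21, adjusted p = 0.88 from limma). HSPH1, which is known both as an HSP110 holding chaperone and as an exchange factor, had the lowest level of the 10 genes. It measured 15.05, 14.24 and 16.43 FPKM in NC and 8.01, 12.04 and 11.73 FPKM in OE. All OE values were lower, and OE replicate 1 was the lowest by a wide margin. The log2 fold change of -0.50 did not pass the test with all libraries (adjusted p = 0.087). Without OE replicate 1 it was smaller, -0.33, and passed (adjusted p = 0.031), and after the correction it was -0.45 (adjusted p = 0.0087).

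HSP90AA1, the inducible cytosolic HSP90, also depended on OE replicate 1. It measured 596.94, 573.07 and 635.53 FPKM in NC and 303.95, 506.19 and 473.69 FPKM in OE. All OE libraries were below all NC libraries, and OE replicate 1 alone carried a large part of the difference. Its log2 fold change, at -0.52 (SE 0.18, limma adjusted p = 0.11) with all libraries, was -0.30 without OE replicate 1 (adjusted p = 0.016) and -0.48 after the correction (adjusted p = 0.016). The level of HSP90AA1 relative to HSP90AB1, the constitutive copy, was 0.569 to 0.597 in NC and 0.363, 0.514 and 0.498 in OE replicates 1, 2 and 3. The log2 ratio differed by -0.36 with all libraries and by -0.20 without OE replicate 1 (exact permutation p = 0.10 in both). HSP90AB1 itself measured 1037 ± 29.3 FPKM in NC and 924 ± 76.3 FPKM in OE (SD, both n = 3), -0.17 on the log2 scale (limma adjusted p = 0.21).

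HSPB1 (HSP27) binds unfolded proteins and actin filaments. The gene lies on chromosome 7 from 76302544 to 76304295, with 3 exons and a transcript of 909 nt in GENCODE. It measured 315.09, 310.81 and 319.73 FPKM in NC, a span of a few percent, and 201.32, 132.20 and 169.77 FPKM in OE. The OE libraries were all lower and more spread, and replicate 1 was the highest among them. The NC mean, 315 ± 4.46 FPKM (SD, n = 3), was 1.88-fold the OE mean, 168 ± 34.6 FPKM (SD, n = 3), a fall by 0.93 on the log2 scale (SE 0.14, limma adjusted p = 0.0099). At 64.47%, its transcript has the highest GC content of the 10. The fall was larger without OE replicate 1 (-1.07, adjusted p = 0.0021) and was -0.91 after the correction (adjusted p = 0.00058). Without NC replicate 1 or 2 the adjusted p was 0.051 and 0.052. HSPB8, the small heat shock protein that works with BAG3, was low, at 2.78 ± 0.523 FPKM in NC and 2.41 ± 0.146 FPKM in OE (SD, n = 3 in each group, adjusted p = 0.52).

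HSPD1 (HSP60) and HSPE1 (HSP10) form the 2 parts of the mitochondrial folding chamber, and they lie head to head on chromosome 2. In GENCODE, HSPE1 starts at 197499994 on the plus strand, within the span of HSPD1 on the minus strand (197486581 to 197516737). HSPD1 measured 273.12, 269.38 and 281.11 FPKM in NC and 225.22, 328.96 and 280.88 FPKM in OE. Its OE libraries lay below, above and within the NC range, and the log2 fold change was 0.0030 (95% interval -0.30 to 0.31, adjusted p = 0.99 from limma). HSPE1 measured 101.88, 102.72 and 101.16 FPKM in NC and 72.75, 76.99 and 79.06 FPKM in OE. Every OE library was lower, and the spread within each group was small. HSPE1 averaged 102 ± 0.781 FPKM in NC, 1.34-fold its mean of 76.3 ± 3.22 FPKM in OE (SD, both n = 3), and fell by 0.41 on the log2 scale (SE 0.074, limma adjusted p = 0.015). The adjusted p was 0.057 to 0.088 when any NC library or OE replicate 3 was left out. HSPE1 shares 16.0% of its 50-base stretches with the HSPE1-MOB4 readthrough gene and 27.2% with any other gene, and HSPD1 shares 24.8%, and how such fragments were assigned is not known. The ratio of HSPD1 to HSPE1 was 2.68, 2.62 and 2.78 in NC and 3.10, 4.27 and 3.55 in OE, higher in every OE library (log2 difference 0.42, exact permutation p = 0.10, which is the floor of the design).

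**Figure D2:**
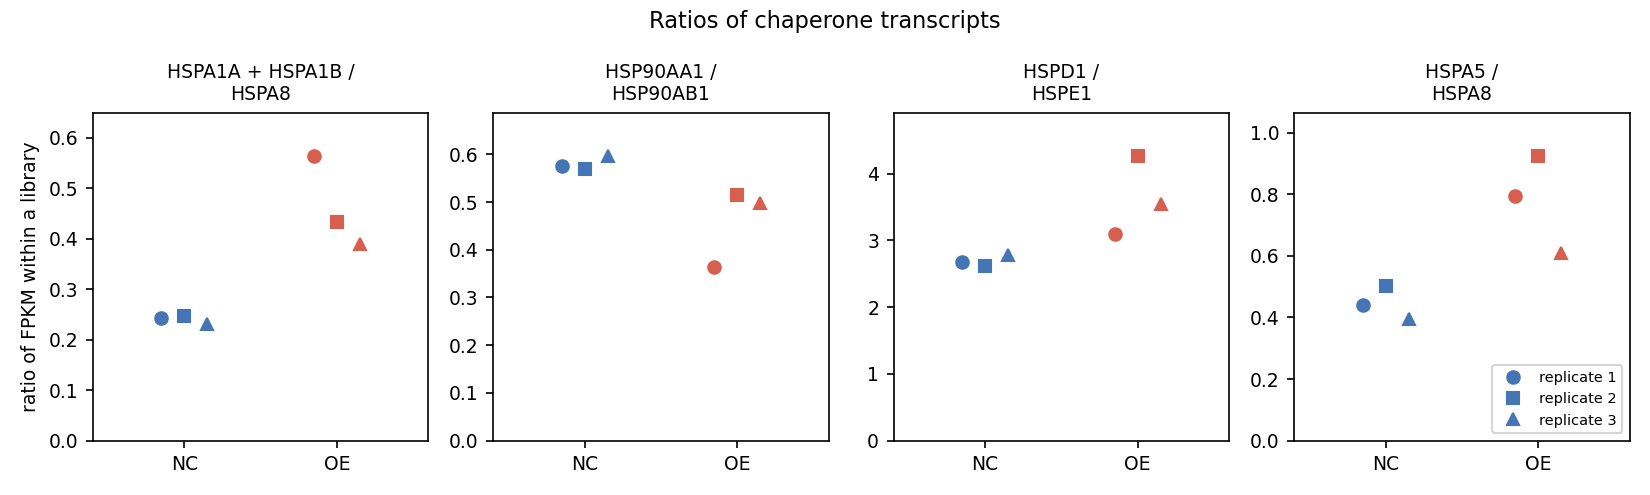
Ratios of FPKM within each library (vertical axes, from 0) for 4 pairs of chaperone transcripts, with NC in blue, OE in red and 1 marker shape per replicate number. In each panel the 3 OE libraries lie on one side of the 3 NC libraries, above for HSPA1A + HSPA1B to HSPA8, HSPD1 to HSPE1 and HSPA5 to HSPA8, and below for HSP90AA1 to HSP90AB1.

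The groups did not overlap in 6 of the 10 genes, beside 36.4% of all tested genes. In NC the levels ran from HSPA8 and HSP90AA1 through HSPB1, HSPD1, DNAJB1, HSPE1, HSPA1A, BAG3 and HSPA1B to HSPH1. HSPA8 and HSP90AA1 overlapped there, as did HSPA1A with BAG3 and BAG3 with HSPA1B. In OE the order began with HSP90AA1, HSPA8 and HSPD1. HSP90AA1 overlapped HSPA8 and HSPA8 overlapped HSPD1, and HSPB1 came after DNAJB1, which it overlapped. Further down in OE, HSPE1 overlapped HSPA1A, HSPA1A overlapped BAG3 and BAG3 overlapped HSPA1B. HSPE1 was apart from HSPB1 above it, and HSPA1B from HSPH1 below it. The summed level of the 10 genes was 2290, 2170 and 2441 FPKM in NC and 1512, 1721 and 1828 FPKM in OE. This was 0.382% ± 0.0223 of all FPKM in NC and 0.284% ± 0.0282 in OE (SD, n = 3 in each group; exact two-sided permutation p = 0.10). HSPA8 and HSP90AA1 alone held 0.185% to 0.220% in NC and 0.0970% to 0.143% in OE.

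**Figure D3:**
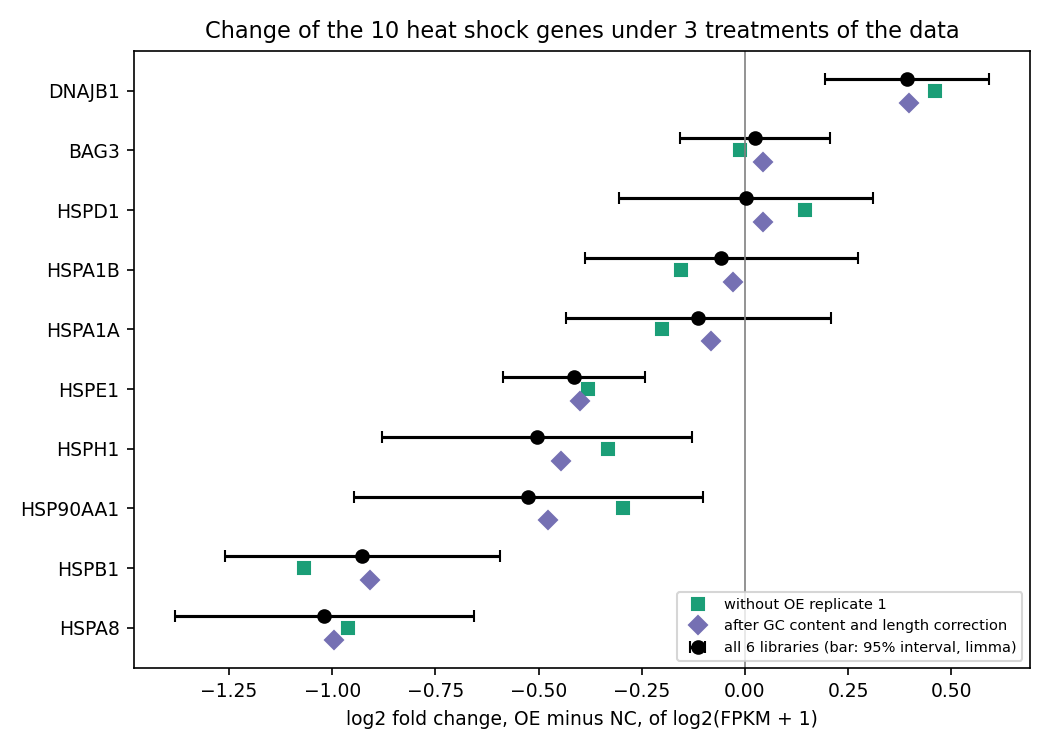
Log2 fold change, OE minus NC, of log2(FPKM + 1) (horizontal axis) for the 10 heat shock genes, with all 6 libraries (black, bars for the 95% interval from limma), without OE replicate 1 (green) and after correction for GC content and length (purple). HSPA8, HSPB1 and HSPE1 stay below 0 and DNAJB1 above 0 in all 3, and HSP90AA1 moves from -0.52 to -0.30 without OE replicate 1.

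The place of OE replicate 1 among the OE libraries differed from gene to gene with GC content. The 5 members with the highest GC content, 53.0% to 64.5%, were HSPB1, HSPA1A, HSPA1B, BAG3 and DNAJB1. In 4 of these 5, OE replicate 1 was above the mean of OE replicates 2 and 3, by up to 0.42 on the log2 scale in HSPB1, and DNAJB1 was the exception, at -0.20. In the 5 with the lowest GC content, 40.0% to 50.2%, OE replicate 1 was below in all 5, from -0.10 in HSPE1 to -0.69 in HSP90AA1. The NC libraries had no such relation, with Spearman correlations of -0.0551 to 0.0979 across tested genes. Taken the same way, OE replicates 2 and 3 gave -0.732 and -0.485, each against OE libraries that include OE replicate 1. Among the NC libraries, replicate 3 was the highest and replicate 2 the lowest in 8 of the 10 heat shock genes, all but HSPE1 and BAG3. The same order held in 15.3% of all tested genes, in 40.0% of 15 other heat-inducible genes and in 11.8% of 17 mitochondrial chaperones and proteases. The order was noticed after the values had been seen and was given no test.

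**Figure D4:**
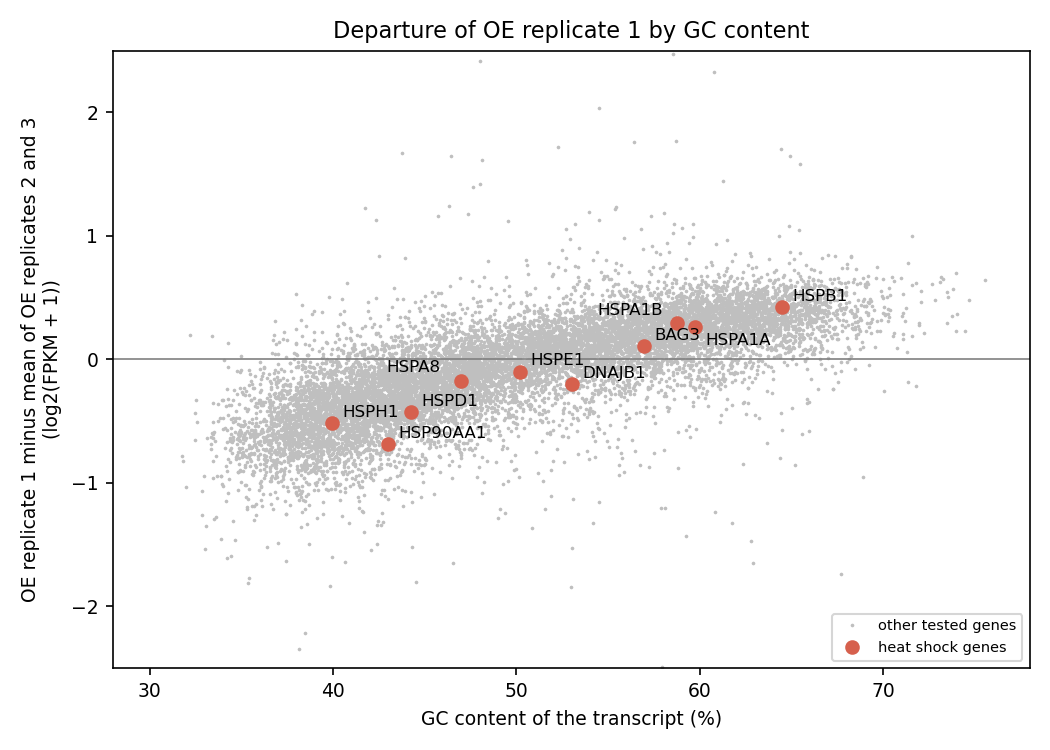
Departure of OE replicate 1 from the mean of OE replicates 2 and 3 on log2(FPKM + 1) (vertical axis; a few genes lie beyond its limits) against the GC content of the transcript in percent (horizontal axis) for the tested genes (grey) and the 10 heat shock genes (red). The heat shock genes run from -0.69 for HSP90AA1 to 0.42 for HSPB1, within the cloud of the other genes.

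The list of heat shock factors had 4 tested genes, HSF1, HSF2, HSF4 and the factor-binding protein HSBP1. Of these, 0 were called by limma, beside 11.4% of all tested genes. HSF1 alone had an unadjusted p under 0.05, a threshold at which all tested genes were not counted. HSF1 measured 63.49, 63.79 and 60.76 FPKM in NC and 100.62, 69.29 and 82.15 FPKM in OE. All OE libraries were higher, but the log2 fold change of 0.40 did not pass (adjusted p = 0.098 from limma). It passed after the correction (0.42, adjusted p = 0.0041) and without OE replicate 2 (0.53, adjusted p = 0.035), but not without OE replicate 1 (0.26, adjusted p = 0.058). HSF2 measured 7.77 ± 0.692 FPKM in NC and 8.23 ± 1.32 FPKM in OE (SD, n = 3 in each group, adjusted p = 0.81), and its direction turned without NC replicate 1 or OE replicate 2. The list of other heat-inducible genes, which holds STIP1, AHSA1, FKBP4, DNAJA1 and CHORDC1 among others, had 15 tested genes. By limma 0 were called, again beside 11.4% of all tested genes, with a median log2 fold change of -0.16. At an unadjusted p under 0.05 there were 2, both lower, again without a count over all tested genes. Without OE replicate 1, 3 of these 15 were called, 1 higher and 2 lower, and after the correction 2, both lower, beside 28.5% and 28.6% of all tested genes.

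Across the other cytosolic and mitochondrial chaperone lists, 8 of 87 tested genes were called, 5 higher and 3 lower, which is 9.20% beside 11.4% of all tested genes. By limma, 0 genes were called among 14 HSP90 proteins and co-chaperones and 8 HSP70 exchange and degradation partners. The same held for 3 other genes listed by an HSPB symbol, HSPB6, HSPB8 and HSPB11. At an unadjusted p under 0.05 the counts were 2, 0 and 1, a threshold at which all tested genes were not counted. The gene of the last count was HSPB11. Without OE replicate 1 the calls in these lists were 4, 2 and 0, and in all the lists together 25 of 87, 17 higher and 8 lower, beside 28.5% of all tested genes. Without NC replicate 1, NC replicate 3 or OE replicate 3 the lists together had 0 calls, and 1 without NC replicate 2. Over all 12322 tested genes these 4 settings, in the same order, gave 300, 407, 450 and 317 calls. The co-chaperone STUB1, the ubiquitin ligase that turns HSP70 clients over to the proteasome, differed by 0.18 on the log2 scale (adjusted p = 0.33). Among 16 cytosolic J proteins, DNAJB5 (-0.52, adjusted p = 0.028) and DNAJA4 (-0.43, adjusted p = 0.043) fell, in contrast to DNAJB1. HSPA12A, a distant HSP70 relative, fell by 0.43 on the log2 scale (adjusted p = 0.048), the single call among 6 other cytosolic HSP70 and HSP110 genes. PFDN2, a prefoldin subunit that hands nascent actin and tubulin to the CCT chaperonin, went up from 257 ± 9.63 to 382 ± 53.6 FPKM (SD, both n = 3, limma adjusted p = 0.018), the single call among 14 CCT and prefoldin genes. PFDN2 and DNAJB5 kept their calls in 14 and 12 of 19 alternatives, and DNAJA4 and HSPA12A in 9 and 7, with adjusted p of up to 0.18 in both.

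The mitochondrial list holds other chaperones, the import motor and proteases of the mitochondrion. Of 17 tested genes 4 were higher in OE and 0 lower by limma, beside 4.69% and 6.66% of all tested genes. The log2 fold change was above 0 in 12 and below 0 in 5, with a median of 0.13. At an unadjusted p under 0.05 the counts were 6 and 1, a threshold at which all tested genes were not counted. HSPA9, the mitochondrial HSP70 that pulls imported proteins into the matrix, measured 238.99, 224.76 and 192.88 FPKM in NC and 291.27, 323.28 and 343.15 FPKM in OE. The groups did not overlap, and HSPA9 rose by 0.54 on the log2 scale (SE 0.10, limma adjusted p = 0.019). Its import anchor TIMM44 rose from 69.5 ± 3.80 to 99.1 ± 3.49 FPKM and its J protein DNAJA3 from 56.0 ± 5.96 to 79.5 ± 3.84 FPKM (SD, all n = 3), with limma adjusted p of 0.011 and 0.022. The matrix protease LONP1, named after its value was seen, rose from 131 ± 5.45 to 212 ± 43.0 FPKM (adjusted p = 0.023). HSPA9, TIMM44, DNAJA3 and LONP1 kept their calls in 14, 16, 13 and 14 of 19 alternatives. Without OE replicate 1 the list had 7 genes higher and 1 lower, and after the correction also 7 and 1, beside 28.5% and 28.6% of all tested genes called in either direction. Without NC replicate 1, NC replicate 3 or OE replicate 3 it had 0 calls and without NC replicate 2 it had 1, in the same test with limma. All 12322 tested genes together had 300, 407, 450 and 317 calls in these settings, in the same order.

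In the endoplasmic reticulum, 4 of 16 chaperones were lower in OE and 0 higher by limma, beside 6.66% and 4.69% of all tested genes. The median log2 fold change was -0.30. At an unadjusted p under 0.05 the counts were 10 and 0, a threshold at which all tested genes were not counted. MANF fell by 1.02 on the log2 scale (adjusted p = 0.0095), CALR by 0.39 (adjusted p = 0.011) and PDIA6 by 0.41 (adjusted p = 0.039). PDIA4, named after its value was seen, fell by 0.46 (adjusted p = 0.049). MANF and CALR kept their calls in 17 and 15 of 19 alternatives, while PDIA6 kept its call in 9 and PDIA4 in 5, with adjusted p of up to 0.16 in both. HSPA5 differed by -0.23 on the log2 scale (adjusted p = 0.067), and by -0.20 after the correction, where it passed (adjusted p = 0.022). Without OE replicate 1 the list had 9 genes lower and 1 higher and after the correction 10 and 1. The shares of all tested genes called in either direction were 28.5% and 28.6%. The list had 0 calls without NC replicate 2, beside 317 of all 12322 tested genes. It had 1 call without NC replicate 1, NC replicate 3 or OE replicate 3, beside 300, 407 and 450 of all tested genes. Whether this list differed from the 10 heat shock genes was not tested.

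**Figure D5:**
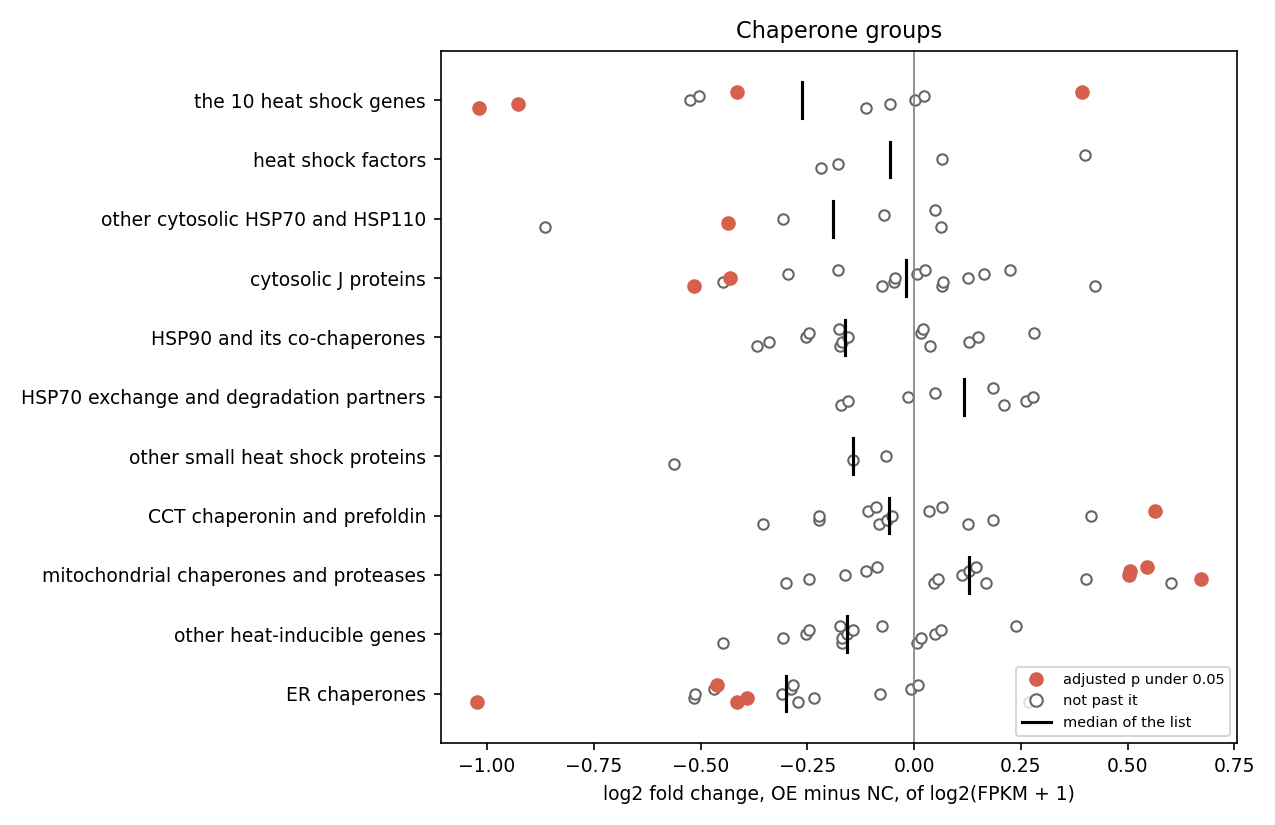
Log2 fold change, OE minus NC, of log2(FPKM + 1) (horizontal axis) for the tested genes of each chaperone list (rows), filled red where the adjusted p from limma was under 0.05, with a black line at the median of the list. The 10 heat shock genes spread from -1.02 for HSPA8 to 0.39 for DNAJB1, and the called mitochondrial genes all lie above 0.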

How the data were processed

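RNA-seq of 6 DU145 libraries, 3 NC and 3 OE by their titles, was analysed from 1 table. The authors deposited FPKM values, rounded to 2 decimals, which are not counts; the build is hg38 per the submitters' processing notes, and the aligner, counter and annotation are not given in the sources used here. Values were taken to log2(FPKM + 1), a scale that understates changes of low genes, and 12322 of 19727 genes, those averaging 1 FPKM or more, were tested together with limma 3.58.1 in R 4.3.3 (lmFit, eBayes with trend, two-sided, Benjamini-Hochberg adjustment). FPKM is relative to the total of a library, and a change in abundant genes therefore shifts all others. Ratios and sums were tested with exact permutation tests over libraries. Depth was estimated in short single-transcript genes of GENCODE release 29, where low FPKM values times length are steps of 1 fragment (92.1% to 97.5% of 67 to 87 values within 0.15 of a step). GC content and length, available for 12310 tested genes, came from GENCODE, whose annotation may differ from the authors' own. Promoter windows came from RefSeq (GRCh38.p14).

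The members and gene lists were chosen with earlier results of these data known. Named were the members, 7 genes fixed by name (HSF1, HSF2, HSP90AB1, HSPA9, HSPA5, STUB1, HSPB8) and, per list, up to 3 called genes in each direction. Of 2 rows with the symbol HSPA14, the identifier that the reference pairs with it was used. The lists share 12 genes, and in the union each gene counts once. Alternatives were a pseudocount of 0.01 or 0.1, dropping the filter or raising it to 5 FPKM, TPM, median-ratio and quantile scaling, unmoderated variances, robust eBayes, a block for the replicate number, the loess correction (span 0.3), both together, the sum of HSPA1A and HSPA1B, and leaving out each library. The correction without OE replicate 1 was chosen after seeing the data. The fit was tested on simulated data. All 6 columns were used, leaving 0 unused. Figures were drawn with matplotlib 3.10.9.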

Additional observations from a re-analysis of the deposited data

How the results depend on the processing

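With 3 libraries in each group, which genes passed depended on the libraries used, while the direction of HSPA8, HSPB1, HSPE1, DNAJB1, HSP90AA1 and HSPH1 held in all 19 alternatives. Numbers are genes at an adjusted p under 0.05 or log2 fold changes, and the causes were not tested. Of all tested genes, 1399 passed, and 834 without moderation, 923 with the replicate block, 3519 after the GC content and length correction, 2752 with the block and the correction, 3781 with the correction and without OE replicate 1, and 300 to 3512 when 1 library was left out. Of the 10 heat shock genes, 4 passed, 1 without moderation and 1 to 6 when 1 library was left out. Of the other cytosolic and mitochondrial lists together, 8 passed, and 3 without moderation, 4 with the block, 23 after the correction, 15 with both, 25 with the correction and without OE replicate 1, and 0 to 25 when 1 library was left out. Of the mitochondrial list, 4 passed, and 1 without moderation, 8 after the correction, 7 with block and correction, 9 with the correction and without OE replicate 1, and 0 to 8 when 1 library was left out. Of the ER list, 4 passed, and 2 with no filter, with median-ratio scaling or without moderation, 11 after the correction, 8 with block and correction, 12 with the correction and without OE replicate 1, and 0 to 10 when 1 library was left out.

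DNAJB1 missed the threshold with quantile scaling (0.32), without moderation (0.39), with the replicate block (0.39) and when any library but OE replicate 1 was left out (0.34 to 0.46 over the 6). HSPA8 (-1.02) and HSPB1 (-0.93) missed it without moderation. Leaving out 1 library gave -1.07 to -0.77 for HSPB1 and -0.44 to -0.38 for HSPE1. HSP90AA1 passed after the correction (-0.48, with the block -0.48) and with the correction and without OE replicate 1 (-0.36), and HSPH1 likewise (-0.45, -0.45 and -0.42). When 1 library was left out HSP90AA1 ran from -0.66 to -0.30 and HSPH1 from -0.60 to -0.33. The genes near 0 changed sign: BAG3 with quantile scaling (-0.030) and HSPD1 with quantile scaling (-0.058). When 1 library was left out BAG3 ran from -0.011 to 0.063, HSPD1 from -0.13 to 0.15, HSPA1A from -0.20 to 0.031, HSPA1B from -0.15 to 0.085 and HSF2 from -0.0066 to 0.19. The 4 ratios kept their direction in every alternative run on them. Deviations of same-numbered libraries from their group means correlated weakly, at 0.0734, 0.00653 and 0.0572. Those of differently numbered libraries correlated at -0.067 to 0.0358. With 3 libraries in each group these values cannot show whether the replicate numbers pair the samples, so the block is given as an alternative only. With the block, HSPE1 stayed at an adjusted p of 0.0499. The median of all tested genes, -0.0275, was at most 0.011 with the other scalings and 0.0129 after the correction. FPKM holds no count per gene, so counting error was not modelled.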
